A study of Homo sapiens with 6 samples.

Results

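The 112 genes described here carry a ZNF symbol made of the letters and a number, and were chosen by their total reads, at least 2000 summed over all 6 RNA-seq libraries. They are 112 of 478 such numbered ZNF symbols and of 54261 symbols counted in all. ZNF395 and ZNF711 were left out by the rule. The summed reads that chose the members ran from 2001 in ZNF507 to 27959 in ZNF207. At the boundary, ZNF507 and ZNF580 (2003 reads) lay just inside, and ZNF22 (1995 reads), ZNF107 and ZNF143 (1989 reads each) lay just outside. All 112 passed the filter on low counts and were tested.

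Most ZNF genes encode proteins with Cys2-His2 zinc fingers, short folds that hold a zinc ion and read DNA, and in some members RNA. Many also carry a KRAB segment, which recruits the co-repressor TRIM28 and through it SETDB1, a methyltransferase that lays down a repressive mark on histone H3, and HP1 proteins, which bind that mark. The family grew by tandem duplication, with its largest clusters on chromosome 19, and members without KRAB include activators, chromatin cofactors and proteins of ribosome assembly.

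The cells were 786-O, an established human line from a clear cell kidney cancer that lacks functional VHL. The control group of 3 libraries carried control guide RNA and is labelled PHF8 wildtype, and the other 3 libraries carried PHF8 guide RNA and are labelled PHF8 knockout; both were made by CRISPR-Cas9 transfection. PHF8 is a histone demethylase that removes repressive methyl marks at active promoters. The labels give neither clone or pool nor separate cultures, so p-values cover variation among these libraries alone, and it may be technical. Libraries held 21533615 to 29095133 counted reads. PHF8 itself read 36.5, 35.0 and 32.9 CPM in control libraries 1, 2 and 3 and 10.8, 6.73 and 12.8 CPM in knockout libraries 1, 2 and 3, where CPM is the read count scaled to library size with a normalization factor. All 3 knockout libraries lay below all controls (log2 fold change -1.78, SE 0.21; edgeR quasi-likelihood test, adjusted p = 1.19e-04). Of the markers of the labelled cell type, PAX8 (at least 211 CPM), VIM, KRT8 and KRT18 were well detected in every library. CA9 stayed at or below 0.79 CPM and PAX2 at or below 7.19 CPM. Of 15 markers of other cells, PTPRC, CD3E, CDH5 and CDH1 had 0 reads. The epithelial marker EPCAM read 3.77 to 6.42 CPM in control and 1.46 to 2.34 CPM in knockout libraries, and the fibroblast, endothelial and CD14 markers stayed at or below 2.24 CPM in every library. CD68 read 43.5 to 47.7 CPM in control and 112 to 121 CPM in knockout libraries. The part of such cells in the results was not tested.

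Promoters of the members are shown first, because the genes that rose and those that fell have much the same CG density there although their transcripts differ in base composition. RefSeq sequences (GRCh38.p14) matched 97 of the 112 genes. Each line gives the 250 bases before the RefSeq start, 5′ to 3′ on the strand of the gene, with CG dinucleotides in capitals. This start can differ from the GENCODE gene coordinates given further on, as in ZNF692 and ZNF714. ZNF787 (chr19:56121296-56121545, minus strand) and ZNF692 (chr1:248859086-248859335, minus strand) had the largest rises. ZNF714 (chr19:21081953-21082202, plus strand) and ZNF326 (chr1:89994860-89995109, plus strand) were among the largest falls.
ZNF787: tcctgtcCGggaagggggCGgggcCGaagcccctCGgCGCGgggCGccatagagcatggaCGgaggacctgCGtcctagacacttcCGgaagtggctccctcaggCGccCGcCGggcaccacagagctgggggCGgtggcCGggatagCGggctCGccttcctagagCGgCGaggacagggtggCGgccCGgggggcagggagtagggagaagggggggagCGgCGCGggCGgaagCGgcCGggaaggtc
ZNF692: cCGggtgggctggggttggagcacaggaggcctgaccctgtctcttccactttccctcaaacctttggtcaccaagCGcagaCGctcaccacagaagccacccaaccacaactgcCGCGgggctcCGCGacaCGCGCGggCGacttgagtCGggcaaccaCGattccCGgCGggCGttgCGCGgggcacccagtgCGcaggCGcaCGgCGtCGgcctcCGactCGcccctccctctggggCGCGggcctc
ZNF714: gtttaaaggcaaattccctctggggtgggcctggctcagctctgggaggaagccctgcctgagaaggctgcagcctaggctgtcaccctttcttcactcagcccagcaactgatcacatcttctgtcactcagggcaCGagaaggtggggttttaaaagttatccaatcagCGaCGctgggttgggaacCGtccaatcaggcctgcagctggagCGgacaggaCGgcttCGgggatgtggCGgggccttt
ZNF326: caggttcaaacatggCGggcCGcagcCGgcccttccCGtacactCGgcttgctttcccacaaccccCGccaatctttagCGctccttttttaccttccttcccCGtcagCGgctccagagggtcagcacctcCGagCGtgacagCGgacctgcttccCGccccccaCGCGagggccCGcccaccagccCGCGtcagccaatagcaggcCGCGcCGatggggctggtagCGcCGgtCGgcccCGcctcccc
These stretches hold 27, 27, 8 and 25 CG dinucleotides, so ZNF714 is the sparse one of the 4. In the full window of 300 bases, members called higher had a median of 25 CG dinucleotides (33 genes) and members called lower 25.5 (34 genes). Promoters of all tested genes with an entry had a median of 26 (9999 genes).

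The letters CCGGAAGT, which ETS-family factors are known to bind, were searched on both strands of the same windows. They stood in 22 of the 97 member promoters (22.7%), in 8.78% of the promoters of tested genes and in 4.14% of all 35116 promoters in the table. Of members called higher 12 of 33 held them, and of members called lower 5 of 34. ZNF622 (chr5:16465801-16466050, minus strand) and ZNF12 (chr7:6706948-6707197, minus strand) are shown as a riser and a faller with the match in capitals, on the reverse strand in ZNF12.
ZNF622: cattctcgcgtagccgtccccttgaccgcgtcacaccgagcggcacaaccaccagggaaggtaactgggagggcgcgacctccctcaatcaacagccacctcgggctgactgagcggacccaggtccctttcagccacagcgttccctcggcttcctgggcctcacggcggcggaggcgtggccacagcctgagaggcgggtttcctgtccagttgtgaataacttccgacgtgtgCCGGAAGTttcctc
ZNF12: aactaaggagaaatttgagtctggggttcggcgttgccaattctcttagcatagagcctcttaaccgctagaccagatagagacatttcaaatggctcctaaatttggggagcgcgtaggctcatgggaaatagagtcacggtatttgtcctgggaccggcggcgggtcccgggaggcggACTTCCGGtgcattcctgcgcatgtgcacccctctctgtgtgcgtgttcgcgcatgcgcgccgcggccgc
Counted from the annotated start, the match begins at -14 in ZNF622, at -70 in ZNF12 and at -165 in ZNF787. It was 1 of 7 motifs searched in this way. The cyclic AMP response element TGACGTCA stood in 9 member promoters (9.28%) and in 3.24% of those of tested genes, and the E-box CACGTG in 6 (6.19%) against 10.2%. The NRF1 palindrome stood in 2.06% against 2.33%, the ZNF143 module in 3.09% against 0.56%, CCAAT in 33.0% against 36.5% and the GC box GGGCGG in 65.98% against 69.8%. A match describes these letters and is no evidence of binding.

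The members split evenly. Of 112, 39 were higher in PHF8 knockout cells, 39 were lower and 34 did not pass the test (adjusted p under 0.05; edgeR). In bulk RNA, fewer cells with a transcript and less of it per cell cannot be told apart. Over all 14398 tested genes 28.9% were called higher and 30.8% lower, 59.7% in all. Among the 8342 tested genes with at least 2000 reads these shares were 34.1% and 31.4%, close to the 34.8% of members in each direction. The median log2 fold change of members was -0.01, the same as over all tested genes, and their middle 50% lay between -0.62 and 0.60. Past 2-fold, 8 members rose (background 9.2%) and 10 fell (background 14.2%). The knockout libraries lay wholly above the controls in 42 members (background 32.6%) and wholly below in 43 (background 34.2%). These backgrounds are over all tested genes. Among the 8342 with at least 2000 reads, 510 rose and 921 fell past 2-fold. In that set 3133 lay wholly above and 2872 wholly below. An alternative fit used an offset that removes smooth trends of transcript length and GC content in each library. Calls that it changed are given beside many named genes but not all. A call without an offset value beside it may therefore also have changed.

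**Figure D1:**
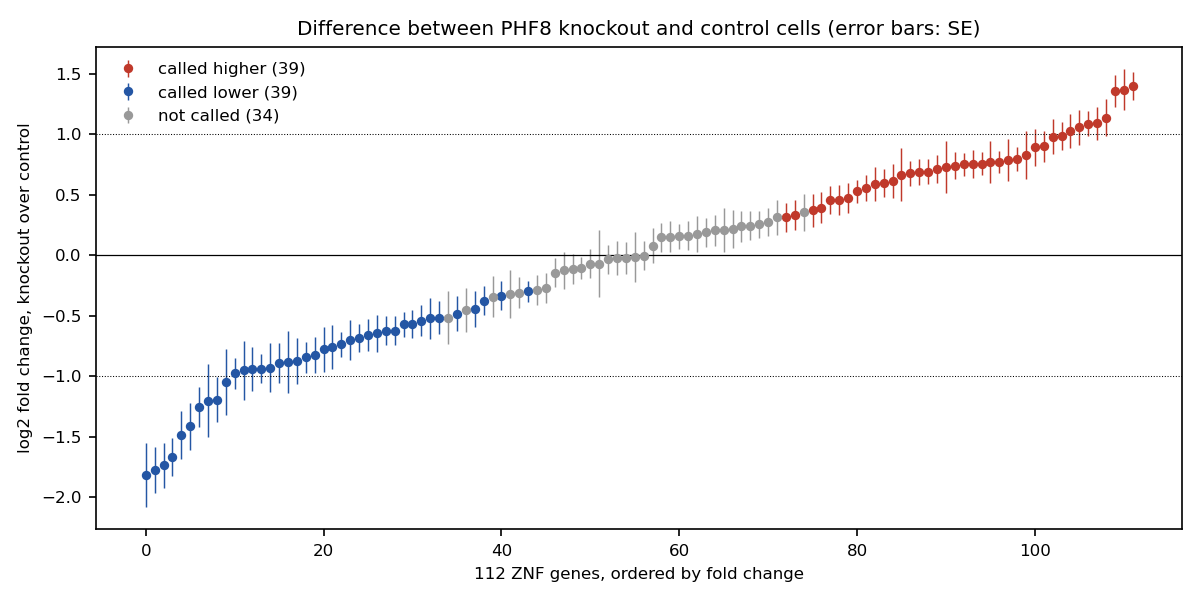
Log2 fold change (knockout over control, y axis) of the 112 ZNF genes in order of size (x axis), with SE as bars; red points were called higher (39), blue lower (39) and grey not called (34), and dotted lines mark 2-fold. Values run from -1.82 in ZNF618 to 1.40 in ZNF787.

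ZNF787, a gene of chromosome 19 (56087366 to 56121295, GRCh38) with 7 predicted fingers, rose most. It read 43.9, 39.0 and 36.4 CPM in the control libraries and 94.2, 109.8 and 110.1 CPM in the knockout libraries. The groups were far apart (log2 fold change 1.40, SE 0.11; adjusted p = 2.60e-05). ZNF692 (chromosome 1, 248850006 to 248859144), a repressor known as a target of the kinase AMPK, went from 16.2, 10.3 and 13.3 CPM to 31.9, 38.2 and 32.6 CPM. Its fold was 2.58, and relative to their mean the control libraries varied more than the knockout ones.

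Genes of ribosome assembly and ribosome quality control were among the risers. ZNF593 (chromosome 1, 26169908 to 26170873), whose protein is known as a large-subunit assembly factor, read 39.7, 36.8 and 35.7 CPM in control and 79.8, 112 and 95.5 CPM in knockout libraries. All knockout values exceeded all controls (2.56-fold, log2 SE 0.13; adjusted p = 5.50e-05). ZNF622 (chromosome 5, 16451519 to 16465800), another large-subunit factor, rose from 54.3, 52.4 and 51.1 CPM to 104, 125 and 106 CPM, a fold of 2.12. ZNF598 (chromosome 16, 1997654 to 2009821), the ubiquitin ligase that marks collided ribosomes, rose from 53.3 ± 1.66 to 90.7 ± 4.91 CPM (SD, n = 3 each; 1.70-fold, adjusted p = 1.47e-04). Per kilobase of canonical transcript, averaged over both groups, ZNF593 was the most abundant member, at 58.6 CPM per kilobase in control and 150.2 in knockout cells. The next 4 by that average, control and then knockout, were at 47.1 and 53.1 for ZNF706, 30.8 and 65.4 for ZNF622, 20.5 and 54.0 for ZNF787 and 27.7 and 22.5 for ZNF410. ZNF706, a single-finger protein of 76 residues, did not pass the test, with 122, 181 and 123 CPM in knockout libraries against 124 to 127 CPM in control. Its mean difference came from knockout library 2 alone. ZNF330, a nucleolar protein gene, behaved alike, at 30.7, 48.3 and 35.7 CPM against 32.8 to 33.0 CPM, and did not pass. With the offset both were called higher (ZNF706 0.50, ZNF330 0.25).

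The other large rises were of genes with lower levels. ZNF205 rose 2.20-fold, ZNF76 2.13-fold, ZNF408 2.08-fold and ZNF576 2.04-fold, and ZNF668 and ZNF689 rose 1.98-fold and 1.97-fold. ZNF76 is a close relative of ZNF143, an activator of small nuclear RNA promoters. ZNF76 read 23.1, 19.6 and 22.5 CPM in control and 50.02, 38.6 and 50.3 CPM in knockout libraries. ZNF143, which lay just under the read minimum and so is no member, had 305, 438 and 491 reads in control and 229, 266 and 260 in knockout libraries (log2 fold change -0.72, SE 0.15; adjusted p = 0.0029). The pair thus lay on opposite sides of 0, each past the threshold. ZNF408, tied to growth of retinal vessels, rose from 9.66 ± 1.31 to 20.04 ± 1.53 CPM (SD, n = 3 each), and no library of either group overlapped with the other. ZNF668, which is linked to DNA repair, went from 13.9, 12.3 and 13.4 CPM to 26.1, 24.5 and 27.7 CPM.

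**Figure D2:**
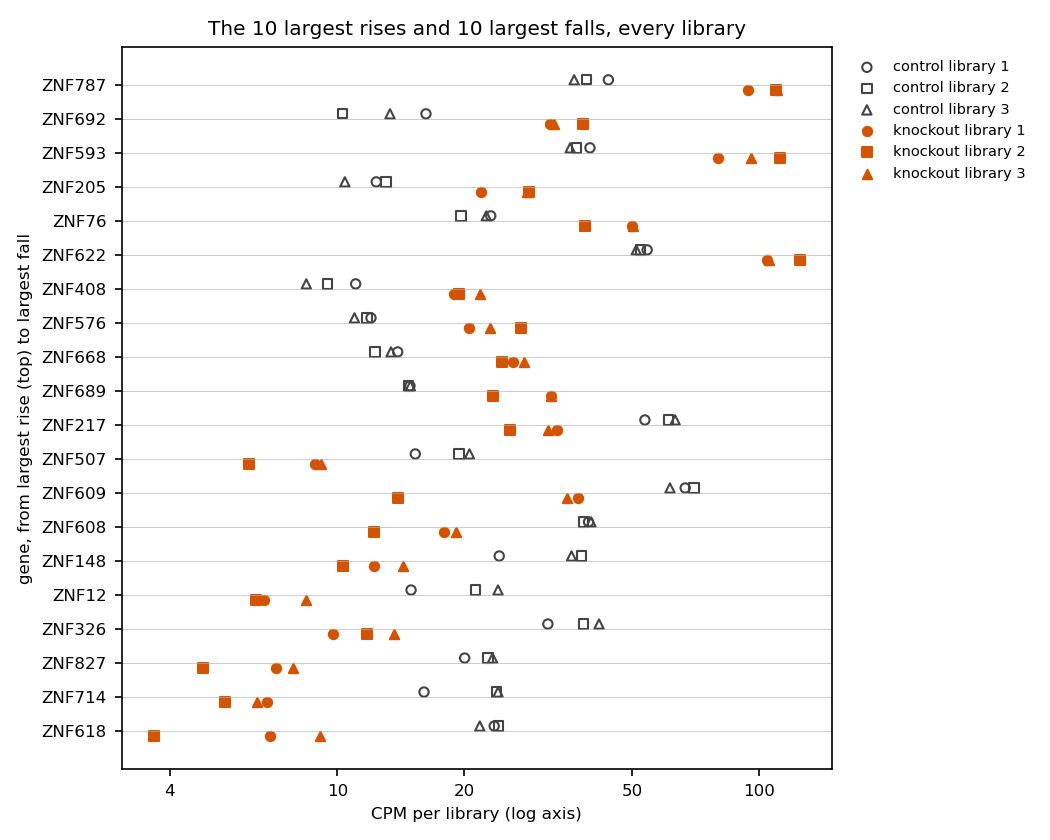
CPM in every library (x axis, log scale) for the 10 members with the largest rise and the 10 with the largest fall (y axis), with open symbols for control and filled orange symbols for knockout libraries, and circle, square and triangle for libraries 1, 2 and 3. The groups do not overlap in any of the 20, which the choice of these genes required, and knockout library 2 is the lowest in all falls but ZNF326.

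ZNF618 (chromosome 9, 113876282 to 114056593), whose protein partners UHRF2, a reader of modified cytosine, fell most. It read 23.5, 24.1 and 21.8 CPM in control and 6.91, 3.67 and 9.07 CPM in knockout libraries (log2 fold change -1.82, SE 0.27; adjusted p = 4.12e-04). The knockout libraries spread more than 2-fold among themselves, yet all stayed under the lowest control. ZNF714 (chromosome 19, 21082159 to 21125270) fell from 16.05, 23.9 and 24.0 CPM to 6.83, 5.40 and 6.46 CPM, a fold of 3.42. ZNF827 (chromosome 4, 145757627 to 145938823), which recruits the NuRD remodelling complex to telomeres, fell from 20.04, 22.8 and 23.3 CPM to 7.16, 4.80 and 7.86 CPM, a fold of 3.33. ZNF326 (chromosome 1, 89995110 to 90035533) is part of the DBIRD complex, which joins RNA polymerase II elongation to splicing. It fell from 31.6, 38.4 and 41.7 CPM to 9.74, 11.8 and 13.6 CPM (log2 fold change -1.67, SE 0.16; adjusted p = 4.96e-05).

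Some pairs of relatives fell together, while others, such as ZNF76 and ZNF143, did not. ZNF608 and ZNF609, which are paralogs, fell 2.39-fold and 2.30-fold. ZNF608 read 39.4, 38.4 and 39.9 CPM in control and 17.9, 12.2 and 19.1 CPM in knockout libraries. ZNF609 read 66.8, 70.1 and 61.5 CPM against 37.3, 13.9 and 35.0 CPM, with knockout library 2 far below the other two; without that library the log2 fold change was -0.87 in place of -1.20. ZNF148 and ZNF281, relatives that bind GC-rich promoter elements, fell 2.67-fold and 1.61-fold. The knockout libraries of ZNF281 lay within 20.8 to 21.2 CPM, against 29.7 to 36.8 CPM in control. With the offset neither of this pair passed (ZNF148 -0.19, adjusted p = 0.096; ZNF281 -0.05, adjusted p = 0.58), while ZNF608 (-0.78) and ZNF609 (-0.81) stayed lower. ZNF12 fell 2.80-fold and ZNF507 2.29-fold, and ZNF217, an oncogene product that binds the CoREST co-repressor, fell from 59.3 ± 5.03 to 30.1 ± 3.91 CPM (SD, n = 3 each).

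Members known as chromatin cofactors were mixed. ZNF644, a partner of the histone methyltransferases G9a and GLP, fell 1.94-fold, and ZNF451, a SUMO ligase, 1.92-fold. ZNF638, linked to silencing of foreign DNA, read 21.3, 44.1 and 41.3 CPM in control and 16.7, 13.3 and 21.6 CPM in knockout libraries. Its control library 1 reached into the knockout range although the gene passed the test (2.07-fold lower, adjusted p = 0.0087). With the offset ZNF638 (-0.10, adjusted p = 0.65), ZNF451 (-0.09, adjusted p = 0.45) and ZNF644 (2.11e-04) did not pass. ZNF592, ZNF687 and ZNF532 form a complex with the reader protein ZMYND8. ZNF532 fell 1.44-fold (adjusted p = 0.023). Leaving out control library 1, 2 or 3 ended that call (adjusted p = 0.0551 to 0.0640), and so did the offset (0.08). The other two, ZNF592 (log2 fold change -0.02, SE 0.21) and ZNF687 (0.21, SE 0.18), did not pass. Without knockout library 2 ZNF592 lay at 0.22 (adjusted p = 0.044) and ZNF687 at 0.41 (adjusted p = 0.0033). ZNF335, a component of a complex that methylates histone H3, rose 1.58-fold (adjusted p = 0.026) with 44.6, 24.2 and 46.3 CPM in knockout libraries. Control libraries of ZNF335 held 23.4 to 25.5 CPM, so knockout library 2 lay among them. That call was lost without control library 1, 2 or 3 or knockout library 1 or 3 (adjusted p = 0.0512 to 0.0943) and with library totals only (adjusted p = 0.0723). ZNF410 is known for its dedicated activation of the CHD4 gene. It fell from 72.6 ± 2.60 to 59.0 ± 1.28 CPM (SD, n = 3 each; adjusted p = 0.017). The call was lost with the replicate number as a block (adjusted p = 0.052) and without control library 1, 2 or 3 or knockout library 3 (adjusted p = 0.0513 to 0.123). CHD4 itself fell from 351 ± 10.9 to 178 ± 45.6 CPM (adjusted p = 0.0011).

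Among further members with known roles, ZNF503 and ZNF703 are sister co-repressors. ZNF503 rose from 21.7 ± 1.09 to 31.9 ± 1.95 CPM (SD, n = 3 each; adjusted p = 0.0020), while ZNF703 had 19.1 ± 1.37 and 15.8 ± 1.18 CPM and did not pass (adjusted p = 0.081). With the offset ZNF503 no longer passed (0.23, adjusted p = 0.11) and ZNF703 was called lower (-0.61, adjusted p = 2.77e-04). ZNF746, known as PARIS and degraded through Parkin, rose 1.61-fold. ZNF207, a spindle and splicing protein and the member with most reads, had 193 ± 9.44 and 179 ± 9.34 CPM (SD, n = 3 each), a difference within the spread (adjusted p = 0.32). ZNF384 (36.8 and 42.4 CPM) and the SETDB1 recruiter ZNF274 (13.3 and 15.7 CPM) did not pass. ZNF106, ZNF146, ZNF318, ZNF462 and ZNF24 fell between 1.43-fold and 1.85-fold. With the offset none of these 5 stayed lower: ZNF106 lay at 0.04, ZNF146 at -0.27, ZNF318 at -0.11 and ZNF462 at -0.17 without passing, and ZNF24 was called higher at 0.45. Leaving out control library 3 also ended the call of ZNF24 (adjusted p = 0.0575). ZNF131 fell 1.26-fold (adjusted p = 0.038), and leaving out any library other than control 1 and knockout 2 ended its call (adjusted p = 0.100 to 0.172), as did the offset (0.06). Of the 37 genes listed for known roles 30 were members, of which 5 rose (background 28.9%), 17 fell (background 30.8%) and 8 did not pass. With the offset 4 of these 5 stayed higher, and of these 17 only 5 stayed lower, 11 no longer passed and ZNF24 turned.

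The direction of a member followed the base composition and length of its transcript. With tested genes split into 4 equal bins by GC content of the GENCODE canonical transcript, the lowest bin (under 41.9%) held 22 members, of which 0 rose and 17 fell. In the highest bin (over 56.3%) 29 of 37 rose and 0 fell. All tested genes leaned the same way, with 7.16% higher and 60.5% lower in the lowest bin and 52.0% and 11.8% in the highest. For transcript length the longest bin (over 5088 bases) held 2 risers and 25 fallers among 39 members, beside 11.5% higher and 56.6% lower among all tested genes there. The shortest (under 1854 bases) held 4 risers and 0 fallers among 6, beside 44.3% and 9.93%. Across the 112 members Spearman's rho of the log2 fold change was 0.72 with GC content and -0.62 with length, against 0.48 and -0.41 across 13303 tested genes. These points share libraries, and genes are not independent replicates.

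The libraries of a group also differed along these measures. Across members, the deviation of control library 1 from the other two controls had a rho of 0.78 with GC content, and that of control library 3 one of -0.71. In the members called lower, control library 1 lay at a median of -0.21 on the log2 scale from the other controls, on the side of the knockout libraries. Its part in the group difference was not tested beyond leaving it out, which gave 38 members higher and 38 lower. Over all tested genes the counts in both directions were then also below those with all libraries.

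With the length and GC offset 50 members were called higher (background 30.9%) and 21 lower (background 29.4%), with a median log2 fold change of 0.15. Among the 8277 tested genes with at least 2000 reads and an offset value, 3039 were higher and 2395 lower. Of the 39 risers 31 stayed higher, and of the 39 fallers 14 stayed lower and 23 no longer passed. The call turned for ZNF24 (0.45 with the offset, -0.52 without) and ZNF621 (0.44 and -0.48) among the fallers and for ZNF511 (-0.26 and 0.45) among the risers. All 10 largest rises kept their call with the offset, at 0.48 to 0.80 on the log2 scale. Of the 10 largest falls ZNF148 (-0.19) and ZNF507 (-0.18) lost it, while the lowest values of the 10 were those of ZNF618 (-1.39) and ZNF827 (-1.18), with ZNF714 at -0.61. ZNF580 lay at -1.14 with the offset and -0.34 without. ZNF207 lay at 1.19 with the offset and -0.11 without, on a canonical transcript of 13740 bases. The offset takes length and GC content from that transcript, and no other transcript was tried. The offset also removes any group difference that itself follows length or GC content.

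**Figure D3:**
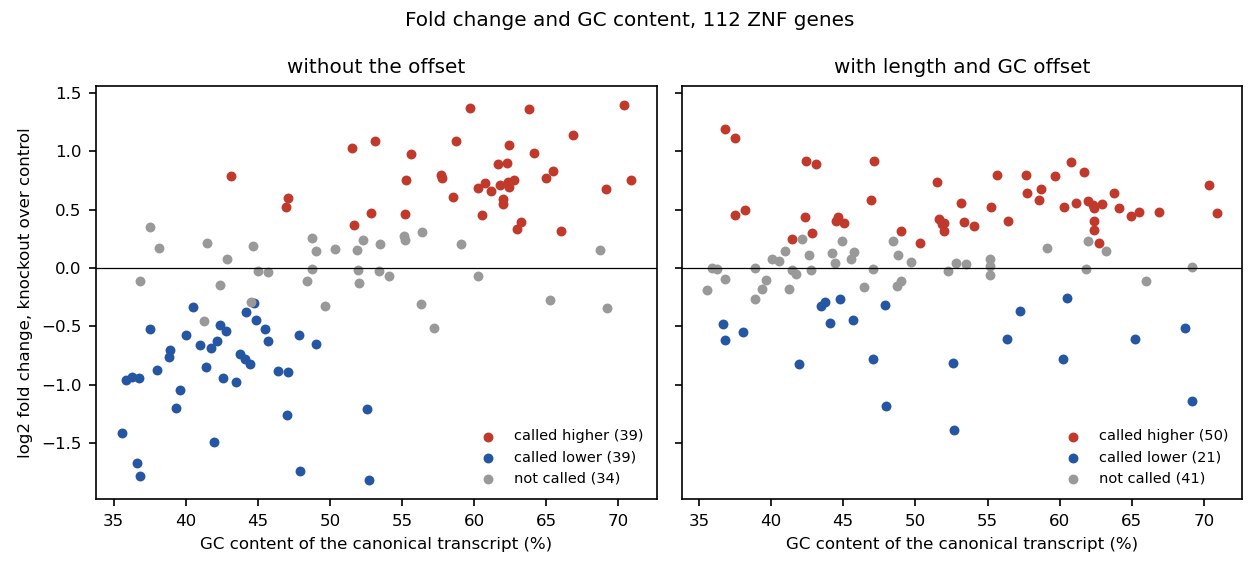
Log2 fold change (knockout over control, y axis) against GC content of the canonical transcript (x axis, percent) for the 112 ZNF genes, without (left) and with (right) the length and GC offset; red was called higher, blue lower and grey not called. On the left no gene above 56.3% GC is blue and no gene below 41.9% is red; on the right 50 genes are red and 21 blue.

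In the fit without the offset, protein features separated the members less than base composition and length did. A KRAB-like segment was found in 31 of 112 predicted proteins by a match to a fixed residue pattern. KRAB segments that differ more from the pattern are missed, so the 81 others may include some. Of these 31, 10 rose and 9 fell (median 0.16), and of the 81 without it 29 rose and 30 fell (median -0.03). Over all tested genes 28.9% rose and 30.8% fell, and 30.9% and 29.4% did so with the offset. With the offset 14 rose and 2 fell among the 31 and 36 rose and 19 fell among the 81. A SCAN-like segment, a pairing domain, stood in 9 members, of which 3 rose and 2 fell (5 and 1 with the offset). Finger counts ran from 0 (such as ZNF330) to 40 (ZNF142). Of 42 members with 10 or more fingers 16 rose and 14 fell, and of 21 with 3 or fewer 5 rose and 8 fell. With the offset 23 rose and 5 fell among the 42 (median 0.28), and 7 rose and 10 fell among the 21 (median -0.11). None of these differences was tested.

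By position, 35 members lay on chromosome 19 and 12 each on chromosomes 7 and 16. On chromosome 19, 12 rose and 11 fell (median -0.03), while of all 917 tested genes there 46.8% rose and 20.6% fell. On chromosome 16, 10 of 12 members rose and 0 fell (median 0.75), where 54.6% of all 603 tested genes rose and 10.1% fell. The exceptions were ZNF200 and ZNF629, and ZNF629 lay lower in all 3 knockout libraries without passing (adjusted p = 0.065). Median GC content on chromosome 19 was 46.9% in members and 58.7% in all tested genes, and on chromosome 16 61.4% and 55.9%. With the offset 13 members rose and 6 fell on chromosome 19, beside 266 and 250 of the 917 genes. On chromosome 16 these counts were 11 and 1 of the 12 members, and 322 and 75 of the 603 genes. Neighbours within 50000 bases gave 17 pairs. ZNF668 and ZNF646 start 181 bases apart in opposite directions, and both rose (0.98 and 0.73 on the log2 scale). ZNF205 and ZNF213, ZNF777 and ZNF746, ZNF579 and ZNF865, and ZNF672 and ZNF692 also rose as pairs, and ZNF561 and ZNF562 fell as one. Other neighbours moved apart, as ZNF530 (0.59) and ZNF134 (-0.38), 1510 bases from each other, and ZNF316 (0.33) and ZNF12 (-1.48). With the offset ZNF561 (-0.01), ZNF562 (0.11), ZNF579 (-0.11) and ZNF134 (0.13) did not pass. The other genes of these named pairs kept their call. ZNF580 and ZNF581, at -0.34 and 0.71, overlap in the annotation. How reads from the overlap were counted is not known, and its part in these values was not tested.

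Knockout library 2 stood apart in part of the members. In 13 of 112 members (11.6%) it lay more than 1.5-fold below both other knockout libraries, and in 0 more than 1.5-fold above both. Over all tested genes these shares were 9.27% and 2.26%, so the first is near the background. Neither knockout library 1 nor 3 stood apart by that margin in any member. In ZNF142, the member with most fingers, the knockout libraries read 34.5, 14.03 and 31.7 CPM against 27.4 to 29.5 CPM in control, higher in libraries 1 and 3 and lower in library 2. ZNF646 read 43.2, 23.1 and 43.1 CPM against 21.7 to 22.8 CPM, and ZNF462 23.1, 9.88 and 20.2 CPM against 30.2 to 34.0 CPM. These genes have long transcripts, but ZNF213, also among the 13, has one of 3311 bases, under the member median of 4374.5 bases. Across members the deviation of knockout library 2 had a rho of -0.60 with length. The part of length in this deviation was not tested. Without knockout library 2, 48 members were called higher (background 31.7%) and 43 lower (background 33.3%).

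**Figure D4:**
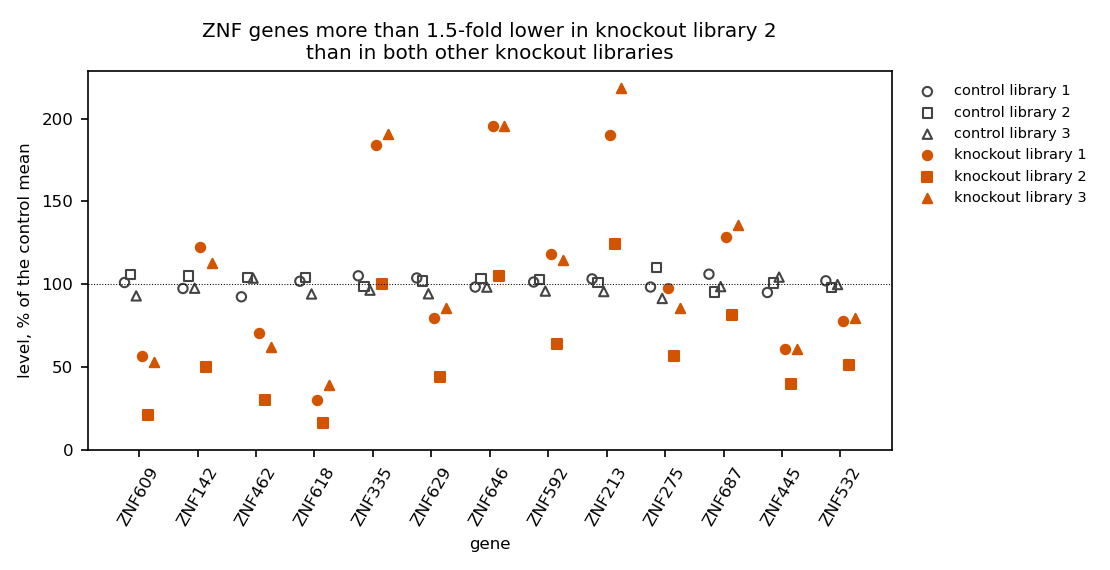
Level as a percent of the control mean (y axis) in every library for the 13 ZNF genes (x axis) in which knockout library 2 lay more than 1.5-fold below both other knockout libraries; open symbols are control, filled orange symbols knockout, and circle, square and triangle are libraries 1, 2 and 3. In ZNF142, ZNF592 and ZNF687 knockout library 2 lies below the controls and the other two above.

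The numbered ZNF genes under the read minimum differed in balance from the members. Of 290 tested, 25 rose and 141 fell, with a median log2 fold change of -0.51, and their median GC content was 42.0% against 49.997% in members. With the offset the counts were 46 and 72 and the median was -0.03. Of 39 genes of the ZBTB, ZSCAN, ZKSCAN, ZFP, KLF and SP families with at least 2000 reads, 9 rose and 18 fell (11 and 3 with the offset). The background was 28.9% higher and 30.8% lower, and 30.9% and 29.4% with the offset. The difference between these classes was not tested.

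Of 28 listed heterochromatin genes, TRIM28 among them, 25 were tested, and 5 rose (background 28.9%), 15 fell (background 30.8%) and 5 did not pass. With the offset 6 were higher and 12 lower: the 5 risers and 11 of the 15 fallers kept their call, and SMARCAD1, ATRX, MPHOSPH8 and SUV39H2 lost it. TRIM28, the co-repressor itself, rose from 374 ± 20.1 to 558 ± 35.5 CPM (SD, n = 3 each; adjusted p = 5.76e-04), and SETDB1 from 26.2 ± 1.14 to 43.98 ± 9.14 CPM (adjusted p = 0.0027). ATF7IP, which stabilizes SETDB1, fell 2.66-fold, and FAM208A, a subunit of the HUSH silencing complex, 2.64-fold. The HP1 genes CBX5 and CBX1 fell 2.62-fold and 1.65-fold, and both stayed lower with the offset (-0.35 and -0.89).

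**Figure D5:**
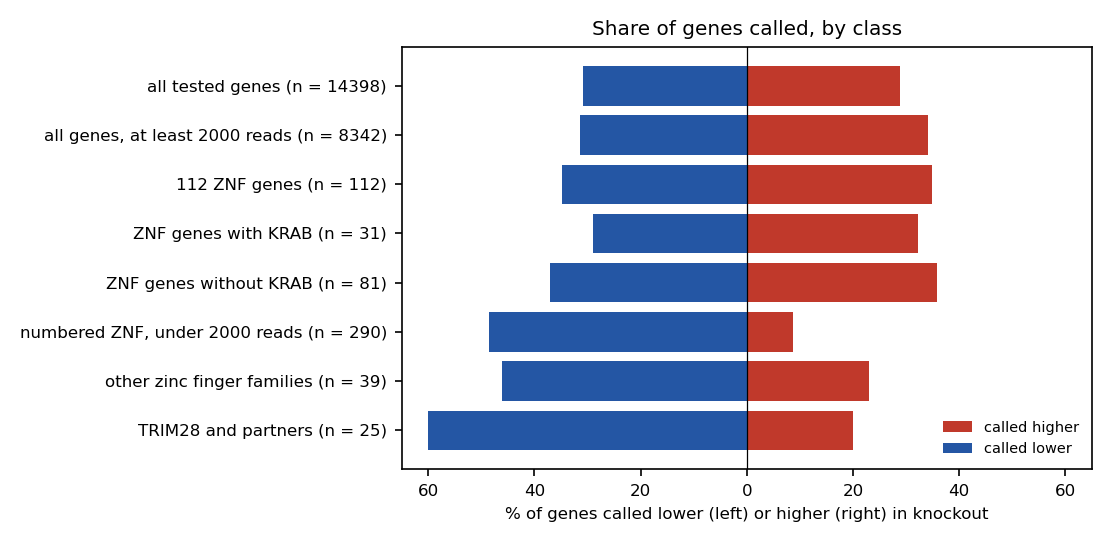
Percent of genes called higher (red, right of 0) and lower (blue, left of 0) in knockout cells for all tested genes, the 112 ZNF genes and related classes (y axis, with the number of genes). The 112 ZNF genes lie near all genes with at least 2000 reads, while 48.6% of the numbered ZNF genes under the minimum were lower and 8.62% higher.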

How the data were processed

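RNA was measured in 3 control and 3 PHF8 knockout libraries of 786-O cells. Per the labels' design text the authors filtered reads, mapped them to GRCh38 with HISAT2 (version 2.0.4 per the submitters' processing notes) and counted them per gene with HTSeq; annotation, strand setting and HTSeq version: not given in the sources used here. What the authors deposited is a table of raw counts by gene symbol. Reads shared with close paralogs, common among ZNF genes, or with overlapping genes are uncertain.

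Knockout was compared with control in edgeR 4.0.16 (quasi-likelihood test, no covariate; R 4.3.3) with TMM factors (0.936 to 1.07), filterByExpr (14398 genes) and Benjamini-Hochberg adjustment over all tested genes at 0.05. SE comes from dividing the log2 fold change by the square root of the F statistic. The script was tested on simulated data. Libraries of a group differed by more than sampling noise (chi-square per degree of freedom 2.95 to 68.2). Coordinates, lengths, GC content and predicted proteins come from GENCODE canonical transcripts on GRCh38, matched by symbol for all 112 members. A KRAB-like segment had at least 7 of 11 fixed residues, a SCAN-like one at least 14 of 20; the first minimum was set at a gap seen in the scores. Members and lists were chosen with earlier results of these data known. Named are PHF8, the 10 largest called rises and falls without overlap between groups, the 5 most abundant per kilobase, genes at the read minimum, called genes that turn under an alternative, and a list of known roles; other members are named as examples chosen after their values were seen. Alternatives were limma-voom (limma 3.58.1), DESeq2 1.42.0, factors by upper quartile or median ratio, library totals, no or a stricter filter, robust dispersions, a replicate block, the length and GC offset (lowess span 0.3) and leaving out each library.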

Additional observations from a re-analysis of the deposited data

How the results depend on the processing

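The number of members called stayed within 1.5 times of 78 in every alternative (66 to 91). The lowest count came without control library 3 and the highest without knockout library 2. Calls over all tested genes moved the same way. They were fewer without control library 3. Without knockout library 2 they were 31.7% higher and 33.3% lower, against 28.9% and 30.8% with all libraries. The range is therefore not particular to the members. Calls lost ranged from 0 with DESeq2, limma-voom, other factors, the stricter filter and robust dispersions to 12 without control library 3 and 30 with the length and GC offset, where 3 more were called in the opposite direction. The median log2 fold change of members was -0.18 with library totals only, which moves the median of all tested genes to -0.18, 0.15 with the offset, and 0.022 to 0.038 when leaving out 1 library. With library totals only 31 members were higher (background 21.9%) and 46 lower (background 37.8%). With the offset 21 members were lower, and numbered ZNF genes under the minimum had 46 higher and 72 lower; with library totals only 16 of these were higher. The other zinc finger families had 3 lower with the offset.

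With the offset the sign turned in 15 of the 78 called members, 3 that had risen and 12 that had fallen, and in 14 members not called. Among genes named by the rule it turned for ZNF106 (0.045), ZNF131 (0.064), ZNF207 (1.19), ZNF24 (0.45), ZNF274 (-0.023), ZNF511 (-0.26), ZNF532 (0.079), ZNF592 (0.39), ZNF621 (0.44) and ZNF644 (2.11e-04). Leaving out 1 library gave ZNF592 -0.17 to 0.22, above 0 without control 1 (0.014), control 2 (0.019) or knockout 2, and ZNF706 -0.034 to 0.27, below 0 without knockout 2. The causes were not tested. Same-numbered libraries of the groups did not deviate together (correlations of 0.027, -0.077 and 0.022), so the numbers are not taken as pairs. With a replicate block 37 members were higher and 40 lower. Over all tested genes the counts in both directions were then below those without the block. ZNF621 lost its call without control library 2 or 3 (adjusted p = 0.0506 and 0.0824). Precision is limited by 3 libraries a group.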

Other observations

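Among the 290 numbered ZNF genes under the read minimum, calls were counted by the presence of a KRAB-like segment. Of 229 with the segment 11 rose and 118 fell (median log2 fold change -0.54, background 28.9% higher and 30.8% lower), and of 61 without it 14 rose and 23 fell (median -0.14). With the length and GC offset the 2 medians were -0.04 and -0.02, 36 rose and 54 fell among the 229, and 10 rose and 18 fell among 60 without the segment that had an offset value. So the share that fell was larger among genes with a KRAB-like segment in the fit without the offset, and smaller in the fit with it. Their transcripts had a median GC content of 41.7% and 46.5%. The difference between these classes was not tested.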
